A study of Capra hircus with 10 samples.

Results

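Genes of the lysosome and of autophagy were followed through 10 goat ovaries. The set holds every protein-coding symbol of the deposited transcript table that begins with ATP6V (subunits of the vacuolar proton pump), that is CTS and 1 further letter (cathepsins) or that begins with ATG and a digit (autophagy genes), together with LAMP1, LAMP2, BECN1, SQSTM1 and TFEB. These rules gave 58 of the 20587 gene symbols: 22 pump subunits, 13 cathepsins, 18 ATG genes and the 5 genes named singly. The rule uses names alone and no measured value. Whole ovaries of Anhui white goats, obtained from a slaughterhouse, were assigned by their labels to the luteal phase (5 ovaries) or to the follicular phase (5 ovaries), and each gave 1 library of ribosomal RNA-depleted total RNA. No treatment, genetic change or age is given for either group, and the 2 groups share the breed. The sources do not say from which goat each ovary came or whether any goat gave more than 1. The p-values below set the difference between the phases against the spread between ovaries within a phase. They treat the 10 ovaries as independent, which ovaries of 1 goat would not be.

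Lysosomes are acid compartments in which proteins, lipids and sugars are broken down. The vacuolar ATPase acidifies them: its V1 sector hydrolyses ATP in the cytosol, and its V0 sector carries protons across the membrane. Cathepsins are lysosomal proteases, most of them active only at acid pH, while LAMP1 and LAMP2 are the major glycoproteins of the lysosomal membrane. Autophagy delivers cell contents to lysosomes inside double-membraned vesicles, whose formation needs the ATG proteins, and TFEB is a transcription factor of many lysosomal and autophagy genes. In the ovary, lysosomes free cholesterol from lipoproteins taken up for steroid synthesis, and both proteolysis and autophagy accompany follicle atresia and the regression of the corpus luteum.

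Levels are in FPKM, the fragments mapped to a transcript, scaled to its length and to all mapped fragments of the library, and are summed over the transcripts of a gene. Fold changes are luteal minus follicular on log2(FPKM + 0.1), a scale that understates the change of low genes. They were tested with limma over 15359 genes, those that reached 0.1 FPKM in 5 or more of the ovaries, two-sided, and a gene was called at a Benjamini-Hochberg adjusted p under 0.05. FPKM of all transcripts summed to between 452508 and 540124 per ovary, and the files used here do not give the number of fragments behind each ovary's values. The median log2 fold change over all genes tested was -0.14, against -0.05 after median centring, in which the log values of all ovaries are moved to one shared median.

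Several lists of marker genes differed between the phases in ways that touch the results below. The 6 genes listed for luteal cells, among them STAR, which brings cholesterol into mitochondria, summed to 5309 to 7266 FPKM in luteal ovaries and to 168 to 222 in follicular ovaries, and 6 of 6 were called higher. Of 11 macrophage markers, 6 were called higher and none lower, with sums of 323 to 429 and 133 to 253. Of 8 endothelial markers, 7 were called higher, with sums of 221 to 280.2 and 113 to 137. Called lower were 3 of the 7 granulosa cell markers and 4 of the 8 oocyte markers, but the sums of both lists overlapped between the phases. For granulosa cells they were 157 to 708 FPKM in luteal and 252 to 1192 in follicular ovaries. For oocytes they were 8.61 to 20.1 and 16.5 to 47.4. Among 7 ovarian stroma markers, 2 were called higher and 2 lower, also with overlapping sums. Of all genes tested, 15.9% were called higher and 27.8% lower. No marker of these lists fell below the filter on low values. In whole ovaries, a change in the number of cells of a type and a change in RNA per cell cannot be told apart, and the part of these cell types in the results below was not tested.

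Of the 58 members, 55 passed the filter and 3 subunits of the pump (ATP6V0A4, ATP6V1B1 and ATP6V1G3) did not. A total of 17 were called higher in the luteal phase (30.9%), against 15.9% of all genes tested, and 6 were called lower (10.9%), against 27.8% of all genes tested. The levels of the 5 luteal ovaries lay wholly above those of the 5 follicular ovaries for 14 of the 55 (25.5%; 11.2% of all genes tested) and wholly below for 4 (7.27%; 17.2% of all genes tested). The median log2 fold change of the members was 0.080. It was 0.17 after median centring and 0.17 on the TPM scale, on which the FPKM of each ovary are rescaled to a common sum, and without 1 ovary it lay between 0.021 (without follicular ovary 2) and 0.11 (without follicular ovary 1). Most of the members called higher were subunits of the pump (8) or cathepsins (5), and the other 4 were BECN1, ATG101, ATG12 and ATG4A. The 6 called lower were ATP6V1C2, ATP6V1G2, ATG13, ATG14, ATG9B and SQSTM1. After median centring, 21 of the 55 members were called higher, where 18.9% of all genes tested were, and 5 of the 55 lower, where 19.9% of all genes tested were.

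**Figure D1:**
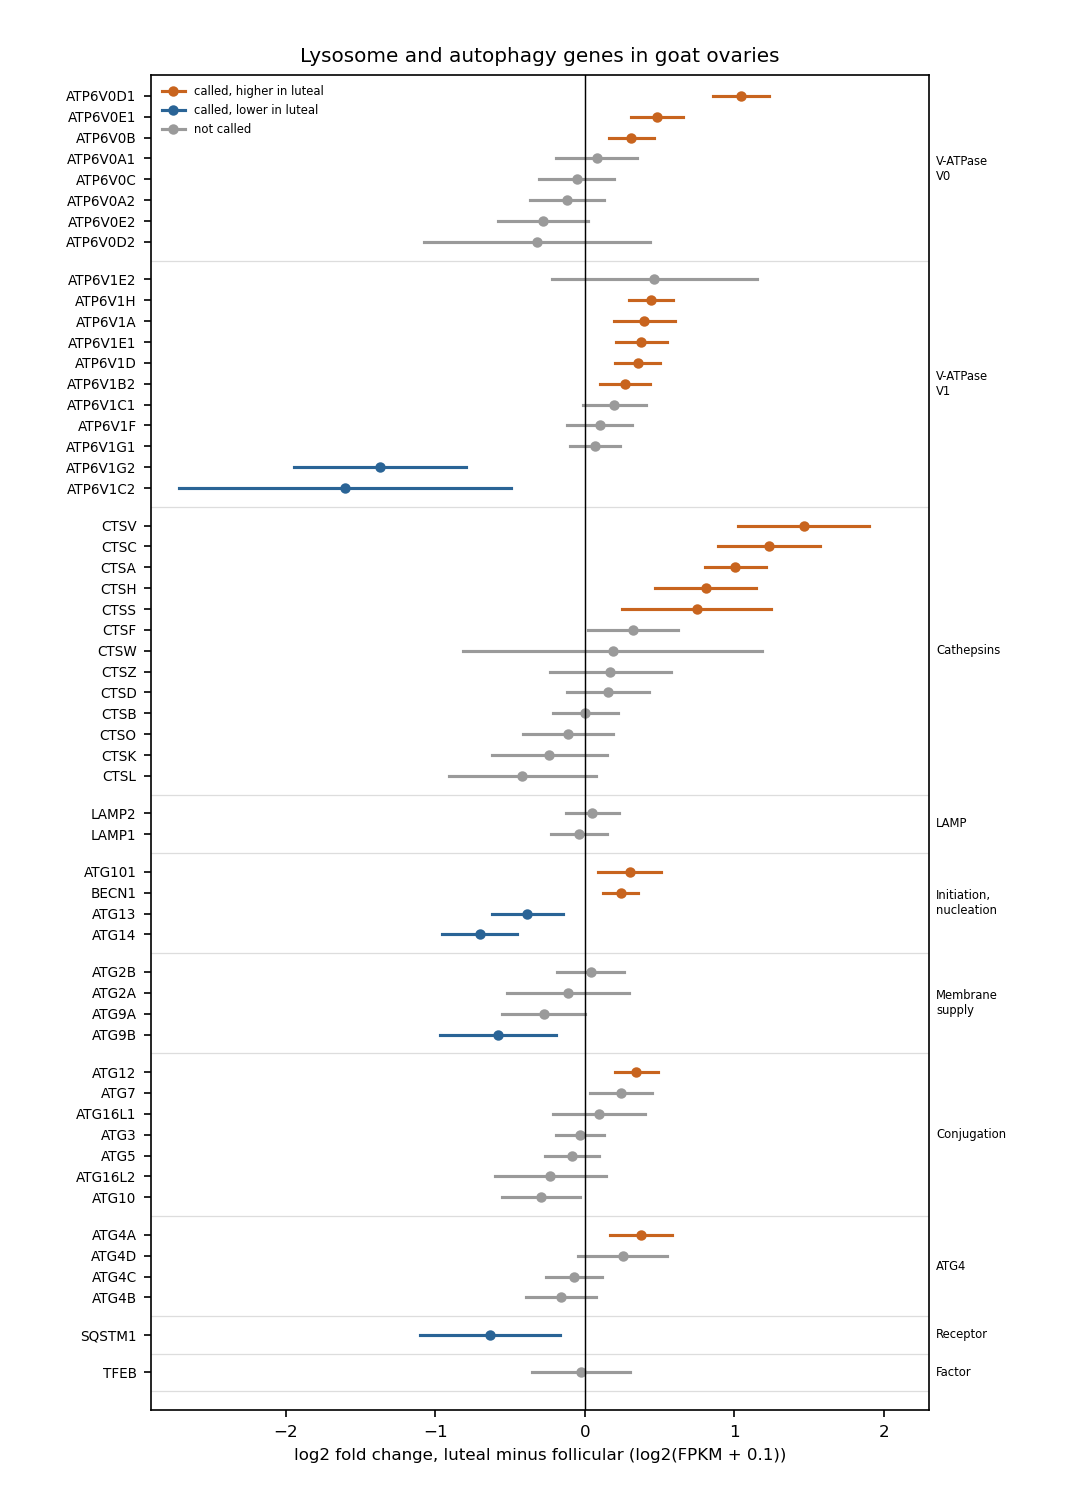
Log2 fold change (luteal minus follicular, x axis) of the 55 tested members, listed on the y axis by role, with the 95% interval from limma as a line; orange and blue mark genes called higher and lower in the luteal phase, and grey those not called. Calls on the higher side crowd among pump subunits and cathepsins, with CTSV at 1.46, and the lowest point is ATP6V1C2 at -1.61.

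Members differed widely in level. Their mean over the 10 ovaries ran from 0.235 FPKM (ATG9B) to 207 (CTSB), with a median of 16.0 against 6.81 for all genes tested, and 20 of the 55 lay in the top 10% of genes. These 20 included 9 cathepsins and 7 pump subunits, and also LAMP1, LAMP2, SQSTM1 and BECN1. No ATG gene was among them, the highest being ATG3, which lipidates LC3 as the E2-like enzyme, at a mean of 26.1 FPKM.

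In the membrane sector of the pump, V0, 3 of 8 tested subunits rose in the luteal phase and none fell, where 15.9% of all genes tested rose and 27.8% fell. ATP6V0D1, the widely expressed d subunit that joins V0 to the central stalk, had an FPKM of 96.6, 88.4, 74.8, 92.3 and 89.8 in luteal ovaries 1 to 5 and 42.2, 49.9, 41.2, 41.5 and 39.2 in follicular ovaries 1 to 5. Every luteal ovary lay above every follicular one, and the mean was 2.07 times as high (88.4 ± 8.22 in luteal and 42.8 ± 4.12 in follicular ovaries, SD, n = 5 each; log2 fold change 1.04, standard error 0.086, adjusted p = 6.66e-06). ATP6V0E1, a small membrane subunit, had an FPKM of 84.0, 96.8, 95.7, 105 and 95.0 in the luteal ovaries and 61.7, 73.8, 66.0, 74.7 and 64.9 in the follicular ovaries. These ranges were also apart, but the change was smaller (log2 fold change 0.48, standard error 0.079, adjusted p = 0.000678). ATP6V0B, a subunit of the proton-carrying ring, was at 73.6 ± 4.86 in luteal and 59.3 ± 3.84 in follicular ovaries (SD, n = 5 each), again without overlap (log2 fold change 0.31, standard error 0.069, adjusted p = 0.00414). ATP6V0C, which forms most of that ring, was not called, at 11.4 ± 1.65 in luteal and 11.8 ± 1.47 in follicular ovaries, and the 95% interval of its log2 fold change ran from -0.31 to 0.20. The a subunits, which hold the path of the protons, were not called either: the log2 fold change was 0.080 for ATP6V0A1 and -0.12 for ATP6V0A2. In the other V0 paralogues, the alternative e subunit ATP6V0E2 gave -0.28 (adjusted p = 0.119) and the alternative d subunit ATP6V0D2 gave -0.32 (adjusted p = 0.468).

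In the catalytic sector, V1, 5 of 11 tested subunits rose and 2 fell (all genes tested: 15.9% and 27.8%). ATP6V1H, which regulates coupling to V0, had an FPKM of 30.2, 29.0, 29.7, 27.5 and 26.9 in luteal ovaries 1 to 5 and 18.9, 20.8, 22.1, 22.2 and 21.5 in follicular ovaries 1 to 5, with no overlap (log2 fold change 0.44, standard error 0.067, adjusted p = 0.000425). ATP6V1A, the catalytic subunit, was at 33.5, 33.4, 31.2, 36.4 and 33.4 and at 25.1, 31.1, 23.1, 26.9 and 21.8. Its phases were barely apart, since the lowest luteal ovary had 31.2 and the highest follicular ovary 31.1 (log2 fold change 0.40, standard error 0.093, adjusted p = 0.00561). ATP6V1E1, part of the peripheral stalk, was at 87.9, 91.8, 83.1, 96.2 and 86.7 in the luteal ovaries and 69.9, 76.5, 62.1, 73.8 and 61.4 in the follicular ovaries, a rise with the ranges apart (log2 fold change 0.38, standard error 0.078, adjusted p = 0.00267). ATP6V1D, of the central stalk, rose by a like amount (0.35, adjusted p = 0.00198) with no overlap, and ATP6V1B2, the ATP-binding partner of the A subunit, rose with overlapping ranges (0.27, adjusted p = 0.0143). The remaining abundant subunits were not called: ATP6V1C1 gave a log2 fold change of 0.20 (adjusted p = 0.116), ATP6V1F 0.10 (0.435) and ATP6V1G1 0.067 (0.497).

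Both V1 subunits that fell were the less abundant paralogue of their kind. ATP6V1G2, a G subunit known chiefly from neurons, had an FPKM of 0.866, 1.09, 1.30, 0.692 and 0.515 in luteal ovaries 1 to 5 and 2.20, 1.68, 3.16, 1.84 and 3.39 in follicular ovaries 1 to 5. No luteal ovary reached the lowest follicular one (log2 fold change -1.37, standard error 0.26, adjusted p = 0.00177). It made up 0.405% to 0.955% of the summed FPKM of the G subunits in luteal and 1.29% to 2.73% in follicular ovaries, the rest being almost wholly the widely expressed ATP6V1G1. ATP6V1C2, the counterpart of ATP6V1C1, varied far more within a phase, at 4.34, 1.99, 0.843, 0.712 and 0.650 in the luteal ovaries and 4.94, 3.21, 4.12, 8.87 and 2.11 in the follicular ovaries. Luteal ovary 1 lay inside the follicular range and the other 4 luteal ovaries lay below it, ovary 2 only just (log2 fold change -1.61, standard error 0.51, adjusted p = 0.0244). The 7 granulosa cell markers summed to 708, 199, 157, 247 and 426 FPKM in the luteal ovaries and to 1192, 447, 252, 735 and 597 in the follicular ovaries. Luteal ovary 1 was the highest of its phase in both measures, while in the follicular phase ATP6V1C2 was highest in ovary 4 and the markers in ovary 1, and their part in the ATP6V1C2 values was not tested. ATP6V1C2 held 1.99% to 14.9% of the summed C subunit FPKM in luteal and 7.86% to 26.3% in follicular ovaries, with overlap. The call for ATP6V1C2 did not hold without luteal ovary 3, 4 or 5 or without follicular ovary 1 or 4, with adjusted p from 0.0518 to 0.0617, nor with its most abundant transcript alone (-2.70, adjusted p = 0.0608). Among the E subunits, ATP6V1E2, known chiefly from testis, held 0.440% to 0.959% of the summed E subunit FPKM in luteal ovaries and 0.332% to 1.35% in follicular ovaries, and its log2 fold change was 0.47 (adjusted p = 0.245).

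The 3 subunits that did not pass the filter are known from specialised acid-secreting cells, such as those of the kidney. ATP6V0A4 ranged from 0.00902 to 0.0681 FPKM among luteal and from 0.0676 to 0.209 among follicular ovaries. ATP6V1B1 was listed at 0 in 3 luteal ovaries and reached at most 0.106 in any ovary. ATP6V1G3 was listed at 0 in 9 of the 10 ovaries and at 0.0300 in follicular ovary 1. The summed FPKM of the 22 subunits was 759 to 851 in luteal and 623 to 686 in follicular ovaries, so these sums did not overlap.

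Of the 13 cathepsins, 5 rose in the luteal phase and none fell, and 8 were not called, beside 15.9% higher and 27.8% lower over all genes tested. CTSV, a cysteine protease closely related to CTSL, changed most, with an FPKM of 192, 151, 359.6, 293 and 250.3 in luteal ovaries 1 to 5 and 77.3, 76.8, 86.7, 93.7 and 98.9 in follicular ovaries 1 to 5. All luteal ovaries lay above the follicular ones, and they were spread far more widely among themselves (249 ± 82.1 in luteal and 86.7 ± 9.80 in follicular ovaries, SD, n = 5 each; log2 fold change 1.46, standard error 0.20, adjusted p = 0.000231). How the authors' quantification divided fragments between CTSV and CTSL is not known, so their single values are uncertain, and CTSL itself was not called at 13.6 ± 3.80 in luteal and 18.4 ± 5.51 in follicular ovaries (log2 fold change -0.42, standard error 0.22, adjusted p = 0.151). CTSC, a dipeptidyl peptidase that activates serine proteases of immune cells, had an FPKM of 92.4, 69.2, 63.0, 76.5 and 75.6 in the luteal ovaries and 35.5, 38.9, 23.7, 25.6 and 38.6 in the follicular ovaries. The lowest luteal ovary was well above the highest follicular ovary (log2 fold change 1.23, standard error 0.16, adjusted p = 0.000136). CTSA, a serine carboxypeptidase that also stabilises lysosomal sialidase and beta-galactosidase, had an FPKM of 43.6, 35.9, 39.2, 41.9 and 44.3 in the luteal ovaries and 19.7, 18.3, 18.9, 20.1 and 25.1 in the follicular ovaries. Its luteal mean was 2.01 times the follicular mean, and the follicular ovaries agreed closely except for ovary 5, which was higher (log2 fold change 1.01, standard error 0.094, adjusted p = 1.69e-05). CTSH, a cysteine aminopeptidase, was at 111, 102, 127, 114 and 95.8 in the luteal ovaries and 43.0, 54.4, 74.5, 72.4 and 75.7 in the follicular ovaries, where ovaries 1 and 2 were lower than the other 3 (log2 fold change 0.81, standard error 0.15, adjusted p = 0.00175).

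CTSS, a cysteine protease of antigen-presenting cells, was the fifth cathepsin that rose, and its phases overlapped in 1 ovary. Its FPKM was 127, 130.1, 128, 137 and 124 in luteal ovaries 1 to 5 and 78.1, 43.7, 74.0, 76.9 and 139.7 in follicular ovaries 1 to 5, so that follicular ovary 5 was the highest of all 10 (log2 fold change 0.75, standard error 0.23, adjusted p = 0.0208). The summed macrophage markers were 428, 383, 323, 429 and 356 in the luteal ovaries and 169.7, 133, 209, 211 and 253 in the follicular ovaries. Follicular ovary 5 thus had the highest marker sum of its phase but lay below every luteal ovary. Without 1 ovary, the log2 fold change of CTSS lay between 0.54 (without follicular ovary 2, adjusted p = 0.0226) and 0.96 (without follicular ovary 5, adjusted p = 0.00110). CTSW, a protease of cytotoxic lymphocytes, was not called (0.19, adjusted p = 0.761), and its ovaries split within each phase, at 5.35, 9.42, 7.56, 24.3 and 22.3 in the luteal phase and 11.4, 7.91, 7.63, 6.59 and 23.9 in the follicular phase. Luteal ovaries 4 and 5 and follicular ovary 5 stood above the other 7. The same 3 ovaries had the highest sums of the 10 T and NK cell markers, at 14.6, 18.4, 18.8, 33.4 and 33.0 in the luteal ovaries and 17.2, 13.8, 17.0, 15.6 and 36.1 in the follicular ovaries. The part of these immune cells in the CTSS and CTSW values was not tested.

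**Figure D2:**
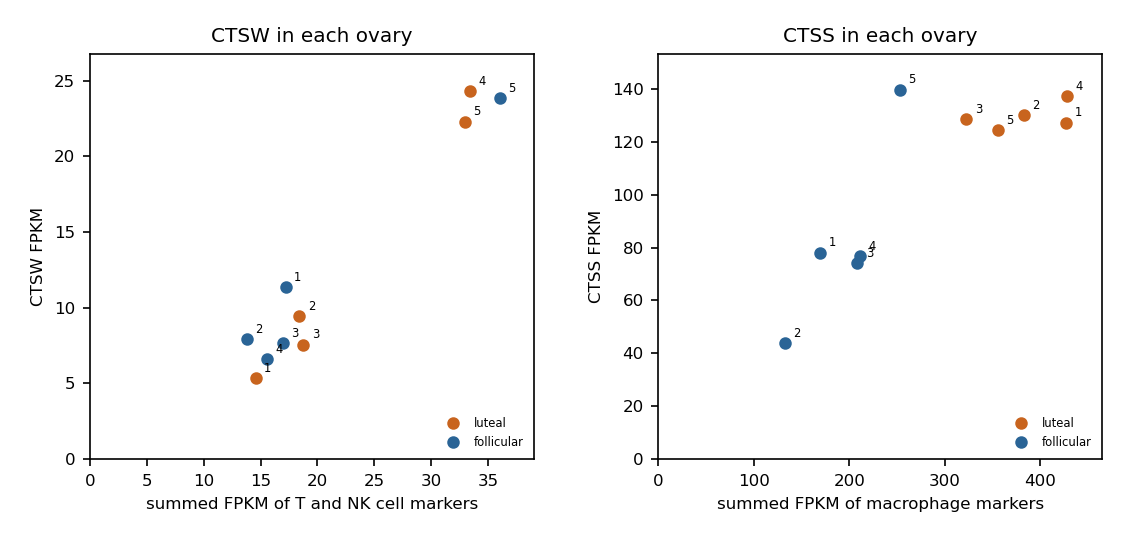
FPKM of CTSW against the summed FPKM of 10 T and NK cell markers (left) and of CTSS against the summed FPKM of 11 macrophage markers (right); each point is 1 ovary, numbered by replicate, with luteal ovaries in orange and follicular ovaries in blue. On the left, luteal ovaries 4 and 5 and follicular ovary 5 stand apart from the other 7 on both axes, and on the right follicular ovary 5 has a CTSS level of 139.7 at a marker sum of 253.

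The 8 cathepsins without a call included the 3 best known for bulk protein breakdown. CTSB, the most abundant member, had an FPKM of 207 ± 18.5 in luteal and 207 ± 26.1 in follicular ovaries (SD, n = 5 each), and the 95% interval of its log2 fold change was -0.21 to 0.22. CTSD, an aspartic protease, was at 117 ± 11.5 in luteal and 106 ± 20.3 in follicular ovaries, with an interval of -0.12 to 0.43. CTSL is given above, and since its division from CTSV is not known, its lack of a call does not show that CTSL was unchanged. CTSK, the collagen-degrading cathepsin of osteoclasts, was at 110.4 ± 11.7 in luteal and 134 ± 35.9 in follicular ovaries and spread from 83.6 to 171 in the follicular phase. CTSK and CTSS are neighbours in RefSeq's goat annotation (ARS1.2), the only pair of members to be so, and CTSS alone was called. CTSF gave a log2 fold change of 0.32 (adjusted p = 0.0756), CTSZ 0.17 (0.479) and CTSO -0.11 (0.531).

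The make-up of the cathepsin transcripts shifted between the phases. Summed over the 13 genes, FPKM was 1151, 1035, 1301, 1279 and 1235 in luteal ovaries 1 to 5 and 796, 680.1, 889.8, 903 and 1114 in follicular ovaries 1 to 5, and the sum of follicular ovary 5 lay within the luteal range. CTSV held 14.6% to 27.6% of this sum in luteal and 8.87% to 11.3% in follicular ovaries. CTSB held 13.6% to 19.8% and 21.9% to 25.8%, CTSK 8.21% to 9.99% and 12.3% to 17.6%, and CTSD 8.46% to 10.7% and 11.5% to 12.7%. Of the less abundant genes, CTSA held 3.01% to 3.79% and 2.12% to 2.69%, and CTSO 0.602% to 0.953% and 1.07% to 1.46%. In these 6 cathepsins the shares of the phases did not overlap: those of CTSV and CTSA were larger in luteal ovaries and those of the other 4 smaller. Shares of one sum are not independent of each other.

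**Figure D3:**
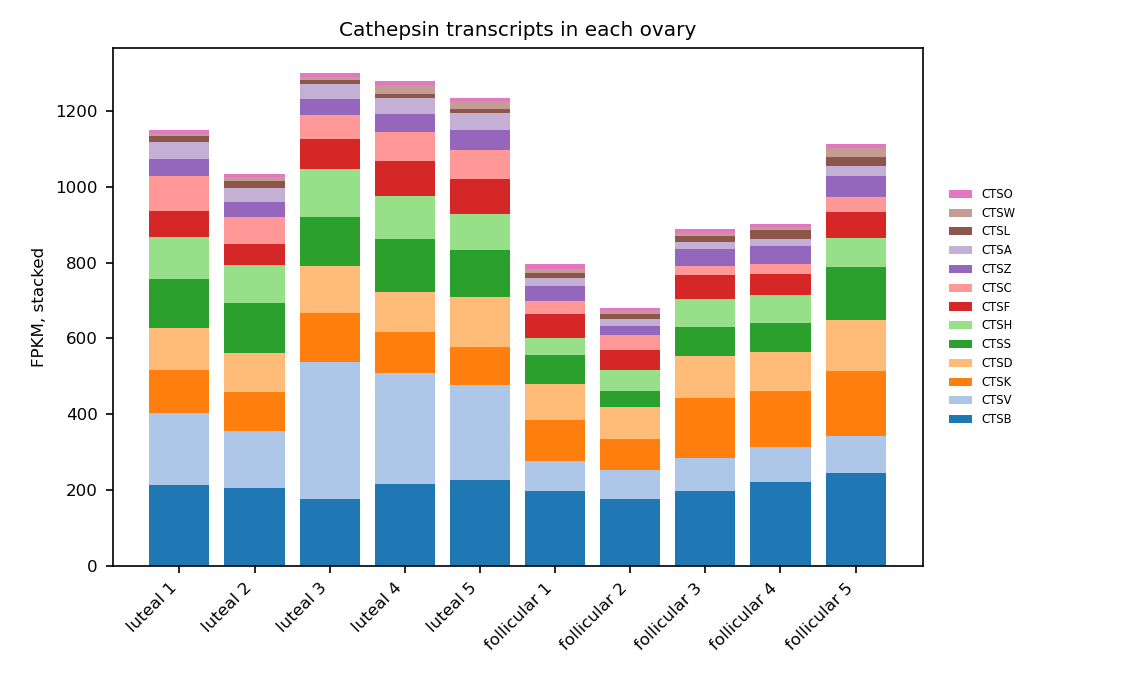
FPKM of the 13 cathepsins stacked for each ovary (5 luteal, then 5 follicular), with the most abundant gene on average, CTSB, at the bottom and CTSV above it. The CTSV segment is at least 151 FPKM in the luteal ovaries and at most 98.9 in the follicular ovaries, while the CTSB segment keeps to between 175 and 244.

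Neither glycoprotein of the lysosomal membrane was called. LAMP1 had an FPKM of 90.9, 82.9, 98.7, 91.4 and 99.8 in luteal ovaries 1 to 5 and 97.9, 83.7, 98.7, 87.5 and 109 in follicular ovaries 1 to 5 (log2 fold change -0.038, standard error 0.085, adjusted p = 0.735). LAMP2, which also serves chaperone-mediated autophagy, was at 70.3, 84.0, 87.4, 82.3 and 80.3 and at 78.6, 66.5, 82.3, 83.7 and 79.4 (log2 fold change 0.051, standard error 0.082, adjusted p = 0.636). The phases overlapped over most of their range for both genes. With 95% intervals of -0.22 to 0.15 for LAMP1 and -0.13 to 0.23 for LAMP2, a change of 2-fold lies outside both. TFEB was low, at 3.00, 2.48, 3.13, 3.23 and 3.65 in the luteal ovaries and 3.14, 2.69, 4.01, 2.52 and 3.52 in the follicular ovaries, and was not called (log2 fold change -0.025, standard error 0.15, adjusted p = 0.902, 95% interval -0.36 to 0.30). These values are transcript levels, and TFEB is known to be regulated largely by its phosphorylation and place in the cell, which were not measured.

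**Figure D4:**
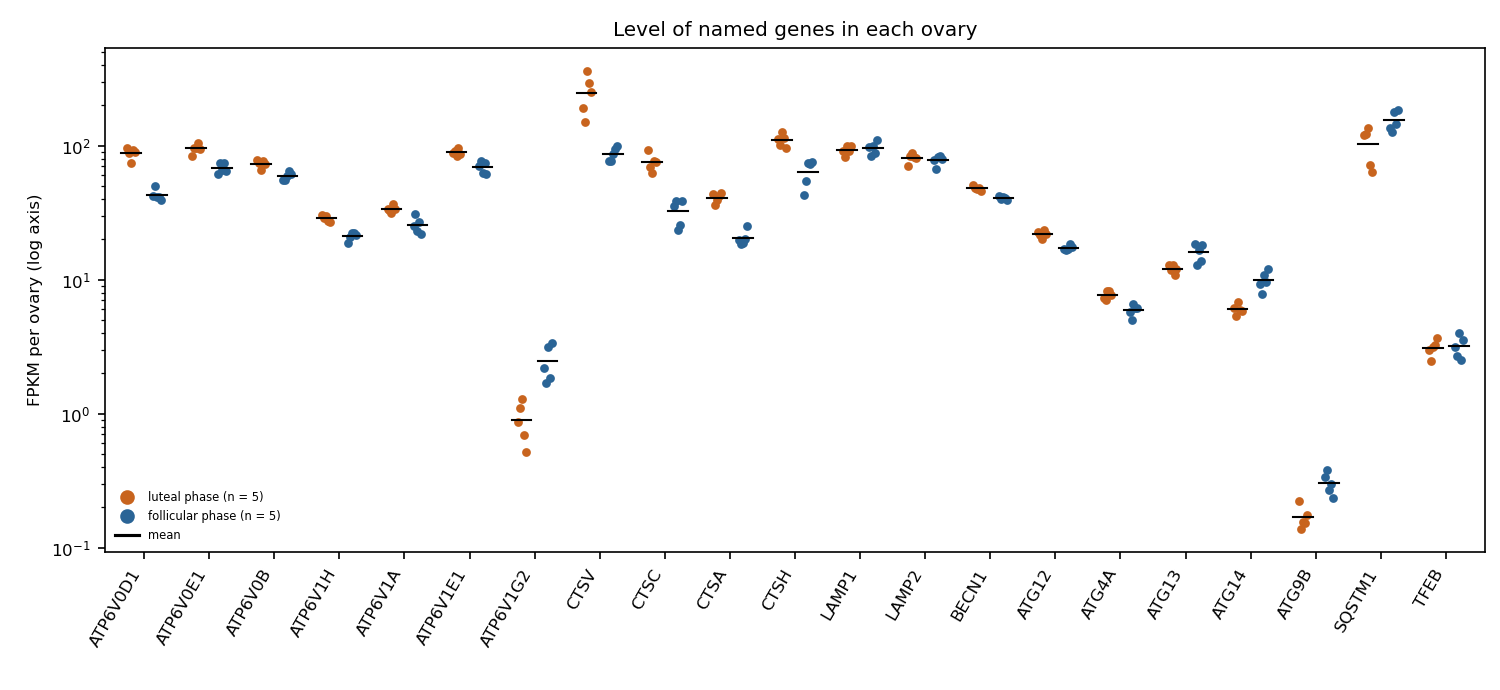
FPKM of 21 members in each ovary on a log axis, with luteal ovaries in orange, follicular ovaries in blue and the mean of each phase as a bar (n = 5 per phase). The clouds of ATP6V0D1, CTSV, CTSC, CTSA and CTSH are apart with the luteal phase above, those of ATP6V1G2, ATG13, ATG14 and ATG9B are apart with the luteal phase below, and those of LAMP1, LAMP2 and TFEB overlap.

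The 4 members that start autophagy were all called, 2 in each direction, while 15.9% of all genes tested were called higher and 27.8% lower. BECN1, the core of the lipid kinase complex that marks the site of vesicle formation, had an FPKM of 51.0, 48.6, 47.1, 48.2 and 46.2 in luteal ovaries 1 to 5 and 42.4, 40.1, 41.2, 40.9 and 39.4 in follicular ovaries 1 to 5. Its rise was small, but every luteal ovary was above every follicular one (log2 fold change 0.24, standard error 0.053, adjusted p = 0.00422). ATG14, which directs that BECN1 complex to autophagy, went the other way, at 6.15, 5.35, 6.79, 5.89 and 5.87 in the luteal ovaries and 9.35, 7.84, 10.8, 9.65 and 11.9 in the follicular ovaries. The ranges did not meet (log2 fold change -0.70, standard error 0.12, adjusted p = 0.000715). ATG13, a scaffold of the ULK1 kinase complex, fell from 18.4, 13.0, 16.6, 13.7 and 18.1 in the follicular ovaries to 12.8, 11.8, 12.8, 10.9 and 12.0 in the luteal ovaries, with the ranges only just apart (log2 fold change -0.38, standard error 0.11, adjusted p = 0.0145). Its call was lost on the TPM scale (-0.29, adjusted p = 0.112) and with its most abundant transcript alone (-0.52, adjusted p = 0.0736). ATG101, the partner of ATG13 in that complex, rose to 18.1, 19.3, 15.0, 16.0 and 17.5 from 12.3, 14.7, 15.3, 12.3 and 15.2, with 1 luteal ovary inside the follicular range (log2 fold change 0.30, standard error 0.097, adjusted p = 0.0269). Leaving out luteal ovary 1, 2 or 5 or follicular ovary 1 or 4 took the adjusted p of ATG101 past 0.05, at most to 0.0657, and with the most abundant transcript in place of the sum it was 0.0736.

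Of the 15 members that extend and close the vesicle, 2 rose, 1 fell and 12 were not called, against 15.9% of all genes tested called higher and 27.8% lower. ATG12, the ubiquitin-like protein joined to ATG5, had an FPKM of 22.6, 21.4, 20.0, 23.5 and 22.1 in luteal ovaries 1 to 5 and 16.8, 16.5, 16.9, 18.5 and 17.5 in follicular ovaries 1 to 5, with the ranges apart (log2 fold change 0.34, standard error 0.066, adjusted p = 0.00180). ATG5 itself gave -0.087 (adjusted p = 0.414), ATG16L1, which binds the pair, 0.095 (0.607), and its relative ATG16L2 -0.23 (0.293). The conjugating enzymes were not called: ATG7, the E1-like enzyme, gave 0.24 (0.0601), ATG10 -0.29 (0.0657) and ATG3 -0.031 (0.752). After median centring, 4 members without a call were called higher: ATG7 (log2 fold change 0.33, adjusted p = 0.0165), CTSF (0.41, adjusted p = 0.0308), ATP6V1C1 (0.28, adjusted p = 0.0286) and ATG4D (0.34, adjusted p = 0.0493). ATG7 was called higher in 4 of 10 settings in all, also on the TPM scale (adjusted p = 0.0302), after quantile normalization (0.0136) and without trend (0.0461). Of the 10 fits without 1 ovary, 1 called it, that without follicular ovary 5 (0.0327).

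Among the 4 ATG4 proteases, which cut LC3 before its lipidation and free it afterwards, only ATG4A was called. Its FPKM was 7.31, 7.00, 8.18, 8.24 and 7.67 in the luteal ovaries and 5.72, 4.97, 6.60, 6.15 and 6.11 in the follicular ovaries, again without overlap (log2 fold change 0.38, standard error 0.095, adjusted p = 0.00855). It held 18.7% to 23.3% of the summed ATG4 FPKM in luteal and 14.8% to 18.3% in follicular ovaries, while ATG4C held the most in each phase. ATG4B gave a log2 fold change of -0.16, ATG4C of -0.073 and ATG4D of 0.25 (adjusted p = 0.250, 0.510 and 0.147).

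ATG2 and ATG9 proteins bring lipid to the growing membrane, and of their 4 genes ATG9B was called lower. It was the lowest of all members tested, at 0.223, 0.137, 0.156, 0.152 and 0.175 FPKM in luteal ovaries 1 to 5 and 0.338, 0.377, 0.267, 0.296 and 0.235 in follicular ovaries 1 to 5. These levels were near the filter of 0.1 and had no overlap (log2 fold change -0.58, standard error 0.18, adjusted p = 0.0206), and the call was lost after quantile normalization (-0.41, adjusted p = 0.112) and without follicular ovary 1 (adjusted p = 0.0501). The widely expressed ATG9A was at 4.24 ± 0.398 in luteal and 5.19 ± 0.871 in follicular ovaries (log2 fold change -0.28, standard error 0.13, adjusted p = 0.0971). ATG2A gave -0.11 and ATG2B 0.040 (adjusted p = 0.648 and 0.771).

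SQSTM1, the receptor p62 that binds ubiquitin-tagged cargo and is itself degraded by autophagy, was called lower in the luteal phase. Its FPKM was 120.1, 123, 135, 71.3 and 63.7 in luteal ovaries 1 to 5 and 135, 126, 178, 145 and 186 in follicular ovaries 1 to 5. Luteal ovaries 4 and 5 lay far below the other 3, of which ovary 3 lay inside the follicular range (log2 fold change -0.63, standard error 0.21, adjusted p = 0.0324). The call did not hold on the TPM scale (adjusted p = 0.0671) or after median centring (0.0596), nor with the most abundant transcript of each gene (0.0504). It was also lost when luteal ovary 4 or 5 or follicular ovary 3, 4 or 5 was left out, with log2 fold changes of -0.52 and -0.48 without the 2 low luteal ovaries and a highest adjusted p of 0.0805.

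The 58 members comprise 121 transcripts: 35 have a single transcript in the table and 23 have several. In 4 of these 23 the transcript with the largest summed FPKM differed between the phases. The share among all genes with several transcripts was not computed, so this count cannot be called high or low. For CTSV it was XM_018051781.1 in the luteal phase, whose share of the gene's FPKM was 43.3 ± 13.8% in luteal and 30.3 ± 10.8% in follicular ovaries (SD, n = 5 each), and NM_001314266.1 in the follicular phase, whose share was 30.4 ± 4.51% in luteal and 31.7 ± 6.49% in follicular ovaries. These shares overlapped between the phases. Another CTSV transcript, XM_018051783.1, held 8.37% to 12.3% in luteal and 16.1% to 34.2% in follicular ovaries, without overlap. The other 3 genes were ATG7, ATG16L2 and ATP6V1E2, in which the shares of single transcripts varied widely between ovaries of 1 phase, from 0% to 80.8% for XM_018066973.1 of ATG7 and from 0% to 91.5% for XM_005686564.3 of ATP6V1E2 in the luteal phase. Among the remaining genes, shares that did not overlap were found in 2, chosen after their values were seen. The ATG16L1 transcript XM_018041061.1 held 53.3% to 78.5% in luteal and 22.8% to 48.8% in follicular ovaries, although the gene's sum was not called. The ATG4D transcript XM_018051058.1 held 16.5% to 51.3% and 0% to 16.3%. Shares of assembled transcripts rest on how fragments were divided among overlapping models, and they were not tested.

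A list of other lysosome and autophagy genes was examined beside the members. Of its genes, 115 were found in the table and all 115 passed the filter: 42 were called higher (15.9% of all genes tested were) and 14 lower (27.8%). Among 33 further lysosomal hydrolases, 19 rose and 1 fell, with a median log2 fold change of 0.43. LIPA, the acid lipase that frees cholesterol from its esters, was at 99.6 ± 18.5 FPKM in luteal against 35.7 ± 10.2 in follicular ovaries (log2 fold change 1.51, adjusted p = 0.000165), and the sialidase NEU1 at 16.9 ± 3.23 against 9.05 ± 0.526 (0.87, adjusted p = 0.000206). The one that fell was PPT1, a thioesterase (-0.18, adjusted p = 0.0333). Among 20 genes of the lysosomal membrane, 9 rose and 2 fell. NPC1, which exports cholesterol from lysosomes, rose most (1.34, adjusted p = 0.000158), followed by ATP6AP1, an accessory protein of the proton pump (0.78, adjusted p = 7.65e-05), and MCOLN1, a cation channel (0.73, adjusted p = 0.00168). The cystine exporter CTNS (-0.92, adjusted p = 0.00201) and LAPTM4B (-0.55, adjusted p = 0.000898) fell.

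Among 35 further autophagy genes, 10 rose and 4 fell, with a median log2 fold change of 0.14. The cargo receptor OPTN rose most (44.2 ± 5.89 against 21.1 ± 3.15; 1.07, adjusted p = 7.66e-05), then VMP1, a membrane protein of vesicle formation (0.65, adjusted p = 0.00575), and the receptor CALCOCO2 (0.61, adjusted p = 0.000587). The falls were led by AMBRA1, which binds BECN1 (-0.67, adjusted p = 0.000433), GABARAP, an LC3 relative (-0.40, adjusted p = 0.000818), and RUBCN, an inhibitor of the BECN1 complex (-0.30, adjusted p = 0.0408). The LC3 family did not move one way, as is added here after its values were seen: MAP1LC3A (0.51, adjusted p = 0.00127) and GABARAPL2 (0.53, adjusted p = 0.000601) rose while MAP1LC3B gave 0.044 (adjusted p = 0.676). Of 24 genes that signal from the lysosome to the nucleus, 4 rose and 6 fell, shares near the 15.9% and 27.8% of all genes tested. PRKAA1, a catalytic subunit of the energy sensor AMPK (0.68, adjusted p = 0.000216), and the Ragulator subunits LAMTOR2 (0.45, adjusted p = 0.00534) and LAMTOR3 (0.30, adjusted p = 0.00188) led the rises. RRAGD, a GTPase that brings mTORC1 to lysosomes (-1.36, adjusted p = 0.000214), the mTOR inhibitor DEPTOR (-0.76, adjusted p = 0.00468) and the TFEB relative MITF (-0.64, adjusted p = 0.0482) led the falls. Of 3 cathepsin inhibitors in the table, CST6 fell (-1.12, adjusted p = 0.00158) and the other 2 were not called, while CST3 and CSTB were not analysed here.

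**Figure D5:**
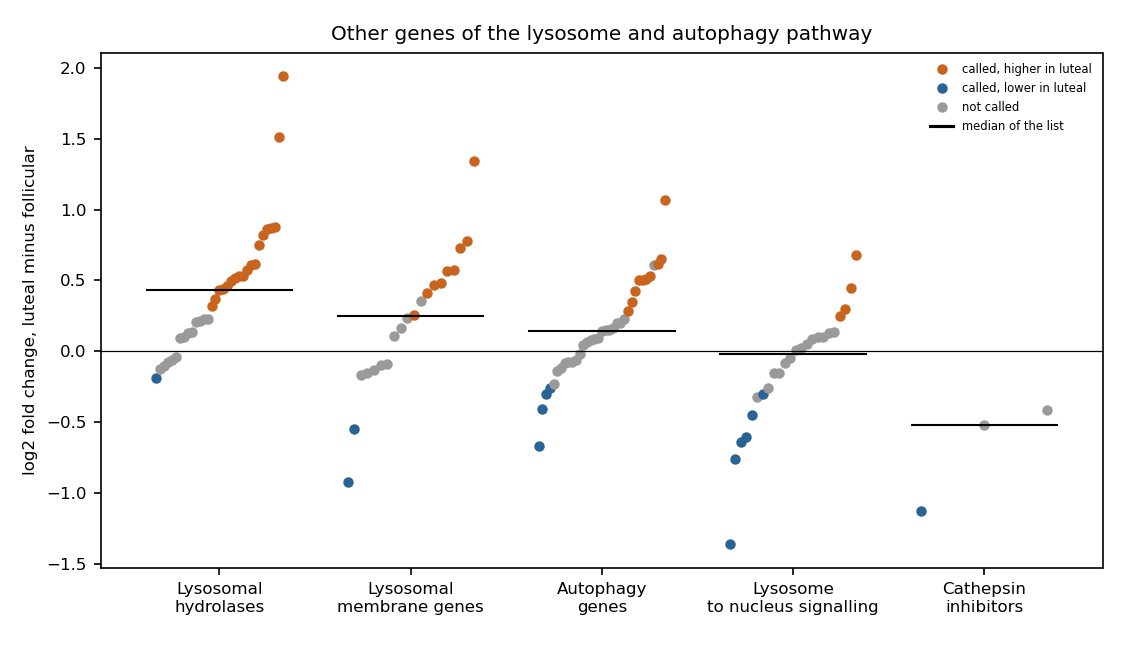
Log2 fold change (luteal minus follicular, y axis) of 115 further genes in 5 lists, ordered by value within each list, with the median of the list as a bar; orange and blue mark calls higher and lower in the luteal phase. The hydrolases carry the most calls on the higher side, 19 of 33, and the signalling list reaches down to RRAGD at -1.36.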

How the data were processed

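Per the paper, the authors depleted ribosomal RNA from total RNA of each ovary, prepared strand-specific paired-end libraries, mapped cleaned reads with HISAT2, used StringTie for assembly and took FPKM per transcript and ovary from Cuffdiff. The genome build is not given in the sources used here. The 43766 protein-coding transcripts in the deposited FPKM table were added up per gene symbol. No counts were used and the files give no depth per ovary, so precision is given here by the spread between ovaries and counting error was not estimated. Every value column was matched to 1 ovary, and no 2 columns were identical.

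log2(FPKM + 0.1) was tested with limma 3.58.1 (lmFit, eBayes with trend; R 4.3.3) over all 15359 genes that passed the filter, without a block, and tables and plots were made with matplotlib 3.10.9, pandas 2.3.3 and numpy 2.4.6 (Python 3.11.15). The fit was tested on simulated data with changes of 2-fold and 4-fold. It called 74% of the 2-fold and 92.8% of the 4-fold changes, and 6.82% of its calls were false. Smaller changes, such as those of most members, were not simulated.

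The members and lists were chosen with earlier results of these data known. Fully described are LAMP1, LAMP2, BECN1, SQSTM1, TFEB and, per role, up to 4 called members with the largest change whose phases do not overlap; of the other lists, the 3 largest changes per direction, of which 1 is not reported here. Symbols absent from the table were sought through the synonyms of the RefSeq annotation of ARS1.2 (CYP11A1 was found under LOC102173131), where 58 of 58 members had an entry. Sequences of the members were not used here. Alternatives were other pseudocounts, filters, scalings, a fit without trend, a replicate block, the most abundant transcript in place of the sum, and leaving out each ovary.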

Additional observations from a re-analysis of the deposited data

Results flagged for a closer look

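In each phase, the highest and the lowest ovary of the 55 tested members were compared with the rest by Dixon's ratio (the gap to the nearest ovary over the whole range). Of 110 sets of 5 ovaries, 5 held an ovary that stood apart, and chance alone gives about 1 in 20. All 5 were follicular ovaries. Follicular ovary 2 was highest for ATP6V0D1, at 49.9 against 39.2 to 42.2 in the others, and lowest for ATP6V1C1, at 19.5 against 24.5 to 25.2. Follicular ovary 5 was highest for CTSA, at 25.1 against 18.3 to 20.1, and for CTSW, at 23.9 against 6.59 to 11.4. Follicular ovary 4 was lowest for ATG4B, at 8.82 against 10.3 to 10.5. ATP6V0D1 and CTSA stayed called higher without these ovaries, with log2 fold changes of 1.10 and 1.08.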

How the results depend on the processing

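Of the 23 called members, 17 kept their call and direction in every alternative and in every fit without 1 ovary in which they were tested, and none changed sign. The exceptions were ATG101, ATG13, ATG9B, ATP6V1C2, CTSS and SQSTM1; CTSS lost its call only with the most abundant transcript in place of the sum (0.82, adjusted p = 0.105). Members called higher numbered 15 to 21 over the settings and 16 to 18 without 1 ovary. Members called lower numbered 3 to 8 and 4 to 10, against 6, with 3 for the most abundant transcript and 10 without follicular ovary 2. Calls in either direction over all genes tested were 4926 and 6981 in those 2 fits, against 6711 as reported. Further pathway genes called higher numbered 34 to 51 and 35 to 45. Those called lower, 14, were 9 on the TPM scale and 9 after median centring, and 9 to 17 without 1 ovary, with 9 each without luteal ovary 1, 2 or 4 or follicular ovary 1 or 5. Those 2 scalings moved the share of higher calls among all genes from 36.3% to 52.1% and 48.8%, and among members from 73.9% to 78.3% and 80.8%.

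In some alternative 17 members changed sign, none of them called as reported or in the fits where the sign changed. On the TPM scale the log2 fold changes were 0.068 (ATG3), 0.025 (ATG4C), 0.011 (ATG5), 0.043 (ATP6V0C), 0.061 (LAMP1) and 0.072 (TFEB). After median centring they were 0.054 (ATG3), 0.012 (ATG4C), 0.030 (ATP6V0C), 0.047 (LAMP1) and 0.060 (TFEB). After quantile normalization they were -0.029 (ATP6V1F), -0.030 (ATP6V1G1), -0.031 (CTSB), -0.060 (LAMP2) and 0.053 (TFEB), and with the most abundant transcript 0.034 (ATG16L2), 0.046 (ATG4C), -0.12 (ATG4D), -0.63 (ATP6V1E2) and -0.058 (LAMP2). Without 1 ovary the ranges were -0.020 to 0.085 (ATG2B), -0.062 to 0.021 (ATG3), -0.0045 to 0.14 (ATP6V0A1), -0.13 to 0.0082 (ATP6V0C), -0.054 to 0.066 (CTSB), -0.080 to 0.49 (CTSW), -0.019 to 0.28 (CTSZ), -0.084 to 0.013 (LAMP1), -0.0061 to 0.10 (LAMP2) and -0.10 to 0.061 (TFEB). The cause of these changes was not tested.

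With the ovary number as a replicate block, 18 members were called higher and 7 lower, the additions being CTSF (0.32, adjusted p = 0.0355) and ATG10 (-0.29, adjusted p = 0.0352), and 40 and 15 of the further genes. Calls over all 15359 genes tested also increased with the block, from 6711 to 7020, of which 36.2% were higher. The numbers were not taken to pair ovaries: equal numbers correlated at 0.0258 to 0.199 in their deviations from the phase means, and 2 of the 5 luteal ovaries correlated best with their own number. Without counts per ovary, the counting error of low members such as ATG9B was not estimated.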
